A study of Mus musculus with 6 samples.

Results

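The 57 genes described here are nuclear genes for subunits of the mitochondrial respiratory chain and the ATP synthase. They were taken from a list of symbols, and each was matched through the GENCODE M21 annotation to 1 Ensembl identifier of a deposited count table that holds 53465 genes. All 57 were found. Complex I has 33 of them, complex II has 4, complex III has 7, complex IV has 7 and complex V, the ATP synthase, has 6.

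The measurements are ribosome profiling counts from ID8 cells, a mouse ovarian surface epithelial line that forms tumours in mice. In ribosome profiling, nuclease digests mRNA outside ribosomes and the fragments left inside them are sequenced. More mRNA or more ribosomes on each mRNA would both raise a gene's count, and without matched RNA sequencing these cannot be told apart. The 3 libraries labelled KO come from cells that received the guide sgNat10 and are described as depleted of NAT10, an RNA acetyltransferase. The 3 libraries labelled WT come from cells that received the control guide sgNC. Cells of both groups received cycloheximide, which stalls ribosomes, at 100 µg/mL over 2 minutes before harvest, and protected fragments of 25 to 34 nt were kept. The labels give no drug or vehicle other than cycloheximide and do not say whether either line is 1 clone or whether replicates are separate cultures. The p-values therefore measure the spread between these libraries, which may be technical.

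The respiratory chain carries electrons from NADH and succinate to oxygen in the inner mitochondrial membrane. Complexes I, III and IV pump protons as they do so, and the ATP synthase uses the resulting gradient to make ATP. Complex I takes electrons from NADH, complex II takes them from succinate, complex III passes them on to cytochrome c, and complex IV delivers them to oxygen. Complex II is made from nuclear genes alone. The other complexes mix nuclear-encoded subunits with a few that mitochondria translate on their own ribosomes, so cytoplasmic ribosomes make the subunits described here.

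Library totals were 2234305 to 3126208 counts in KO libraries and 1687466 to 2148715 counts in WT libraries. Among low counts one value was the most common, the modal count, which was 42 to 60 in KO libraries and 15 to 39 in WT libraries. A count divided by the modal count of its library is called a molecule equivalent below and serves as a rough measure of depth. The targeted gene Nat10 had 315, 133 and 445 counts in KO libraries, against 168, 128 and 292 counts in WT libraries, a log2 fold change of -0.07 ± 0.48 (SE). Footprints on Nat10 therefore do not check the labels, and KO and WT below mean the libraries labelled so. Of 12 epithelial and mesothelial markers 6 were tested, and Epcam and Pax8 had 0 counts in all libraries. Cdh1, Krt7, Lrrn4 and Muc16 had 0 counts in KO libraries and few in WT libraries. In WT libraries Cdh1 had 50, 14 and 0 counts, Krt7 6, 0 and 0, Lrrn4 12, 3 and 0, and Muc16 12, 17 and 0. The list summed to between 4180 and 4827 CPM in KO libraries and between 5899 and 6347 CPM in WT libraries. Krt19 and Krt18 (keratins of epithelia) were called lower and Msln (mesothelin) was called higher in KO libraries by edgeR's quasi-likelihood test, with adjusted p of 0.0044, 0.0195 and 0.0145. Leukocyte markers summed to between 0 and 1.55 CPM in KO libraries and between 0 and 14.5 CPM in WT libraries, with 0 of 9 genes high enough to test. Fibroblast and endothelial markers summed to between 951 and 1325 CPM in KO libraries and between 676 and 737 CPM in WT libraries, mostly from Dcn, the only one of 9 that was tested, which had a log2 fold change of 0.67 (adjusted p 0.246 by the same edgeR test). The part of these differences in the results below was not tested.

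Footprints on the 57 genes made up 0.922%, 0.778% and 0.850% of all counts in KO replicates 1, 2 and 3, and 0.841%, 0.915% and 0.853% in WT replicates 1, 2 and 3. The groups overlapped. All 57 passed the filter on low counts that left 8200 genes for testing. In 51 of them every library had at least 1 count, and the other 6 had 0 counts in some library.

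The levels of the subunits spanned a wide range. Levels are given as CPM, counts scaled to a common library size after TMM adjustment, and, where genes are set against each other, as CPM per kilobase of coding sequence. Atp5b, the catalytic beta subunit of the ATP synthase, had the highest level of all 57, with a mean of 1165 ± 301 CPM per coding kilobase in KO libraries and 1327 ± 83.4 in WT libraries (SD, n = 3 each). Atp5a1, its alpha subunit, came next in the mean over all libraries, with 512 ± 27.3 in KO libraries and 726 ± 44.4 in WT libraries. Together with their 4 partners they made complex V the largest share of summed CPM over the 57 genes, at 41.5% in KO libraries and 43.6% in WT libraries. Atp5b alone held 22.7% over all libraries and Atp5a1 held 11.8%.

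Within each complex the highest and lowest members differed by different amounts. Means over all 6 libraries in complex I ran from 21.1 CPM per coding kilobase for Ndufb4 to 352 for Ndufv1, the flavin-bearing subunit that oxidises NADH, with a median of 126. Complex II had the smallest ratio, 2.26, between Sdhd, a membrane anchor subunit, at 309 and Sdhb, the iron-sulfur subunit, at 136. It also has the fewest listed members, 4 against 33 in complex I. A ratio of highest to lowest can grow with the number of members, so it does not rank complexes of unequal size. Complex III ran from 126 for Uqcrc1 to 457 for Uqcrh, a ratio of 3.63. Complex IV ran from 42.1 for Cox7c to 530 for Cox4i1, and complex V from 151 for Atp5o to 1246 for Atp5b. The lowest genes of complexes I and IV, Ndufb4 and Cox7c, have coding sequences that recur in the genome, as described below. The next lowest gene of complex I, Ndufv3 at 35.6, and also Ndufb9 at 48.0, have no copied stretch.

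**Figure D1:**
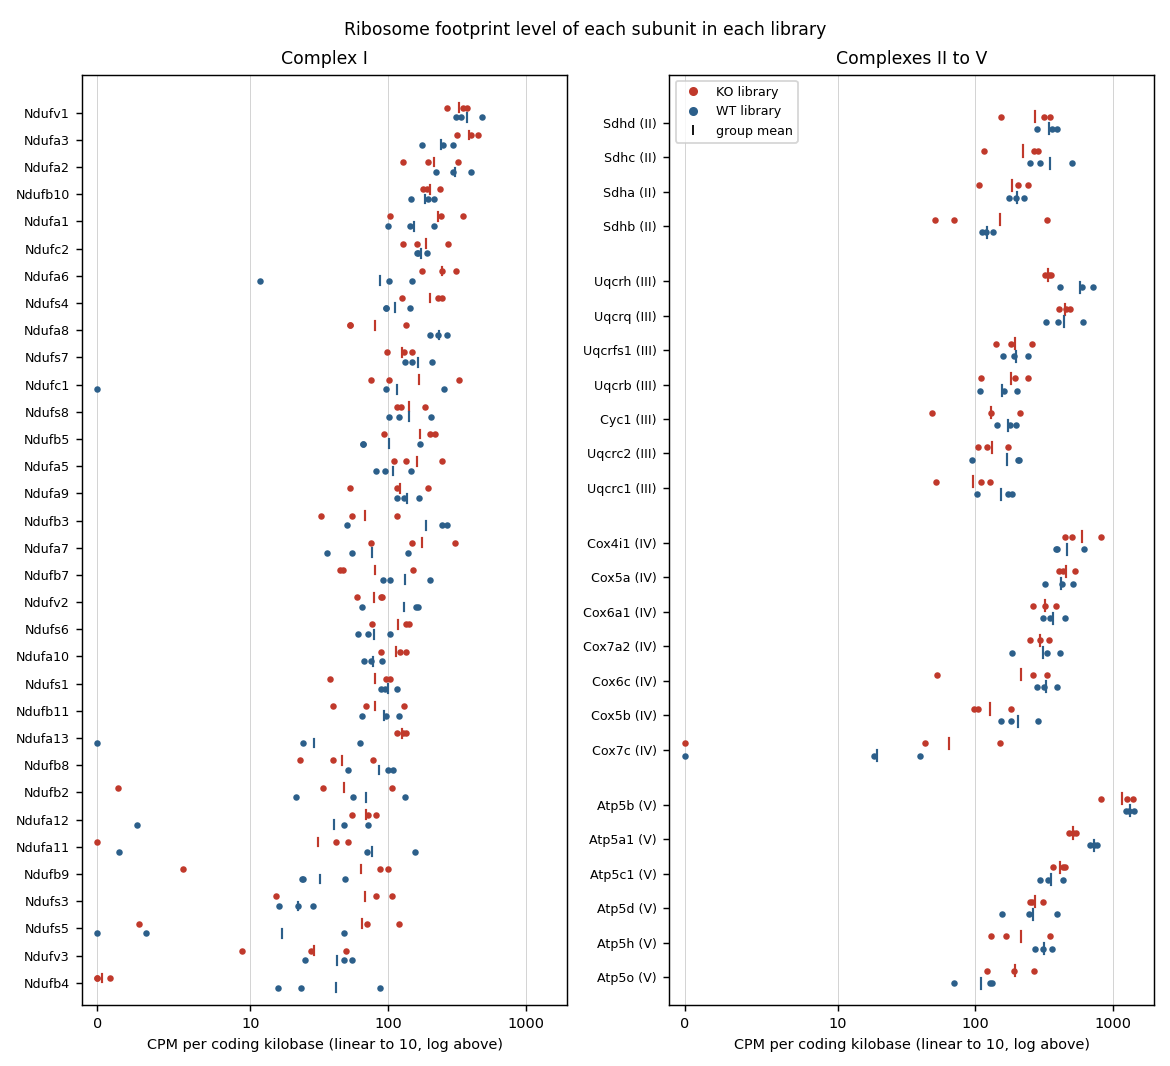
Level of each of the 57 subunits in each of the 6 libraries, in CPM per coding kilobase (horizontal axis, linear to 10 and logarithmic above), with KO libraries drawn above WT libraries and a vertical tick at each group mean. Complex I is on the left and complexes II to V are on the right, sorted by level within each complex; Atp5b is highest, with means of 1165 in KO libraries and 1327 in WT libraries, and Ndufb4 is lowest.

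The coding sequences of many of these genes occur more than once in the mouse genome, mostly as processed pseudogenes, which are copies of mRNAs inserted back into chromosomes. Footprints of about 29 bases cannot be placed when every 29-base stretch recurs, and how the authors counted such reads is not stated. In 37 of the 57 genes some 29-base stretch of the coding sequence had an exact copy elsewhere in GRCm38, and in 20 none did. Shares of copied sequence below are the percent of a gene's 29-base stretches with such a copy. For 10 genes the share was above 50%: Cox7c and Ndufb4 at 100%, Uqcrb at 91.2%, Atp5h at 85.4%, Cox5b at 84.0%, Ndufs5 at 81.9%, Ndufa12 at 76.3%, Ndufs3 at 68.5%, Cox6c at 67.5% and Ndufb3 at 52.3%. Cox7c encodes a small membrane subunit of complex IV, and its 192-base coding sequence is shown with 3 of its copies because they show why its fragments have no unique place in the genome. The spliced coding sequence of Cox7c lies at chr13:86045753-86046675, minus strand. A copy named Gm12338 at chr11:75599763-75599954, minus strand, is identical to it over all 192 bases and is not printed again. The copies printed below are Gm10012 (chr17:25901862-25902053, plus strand), a place with no gene in the annotation (chr14:38380547-38380738, plus strand) and Gm20091 (chr10:96408847-96409038, minus strand), with 2, 2 and 10 mismatches, shown as capitals:
Cox7c: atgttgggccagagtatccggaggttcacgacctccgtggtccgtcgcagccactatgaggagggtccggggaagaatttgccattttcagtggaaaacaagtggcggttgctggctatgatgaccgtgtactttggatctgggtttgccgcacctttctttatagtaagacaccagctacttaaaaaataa
Gm10012: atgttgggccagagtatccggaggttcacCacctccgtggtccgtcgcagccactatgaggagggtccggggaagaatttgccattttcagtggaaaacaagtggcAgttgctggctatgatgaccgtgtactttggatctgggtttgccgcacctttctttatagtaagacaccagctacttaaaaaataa
Copy on chromosome 14: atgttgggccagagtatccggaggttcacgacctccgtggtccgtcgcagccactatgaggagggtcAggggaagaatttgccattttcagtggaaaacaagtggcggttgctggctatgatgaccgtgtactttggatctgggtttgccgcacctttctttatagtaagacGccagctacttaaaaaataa
Gm20091: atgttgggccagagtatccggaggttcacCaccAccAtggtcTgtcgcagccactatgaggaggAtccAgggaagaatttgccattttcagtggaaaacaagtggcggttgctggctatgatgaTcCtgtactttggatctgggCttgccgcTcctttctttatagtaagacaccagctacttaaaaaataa

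Cox7c had 21, 0 and 92 counts in KO libraries, against 0, 7 and 13 counts in WT libraries. One library of each group was at 0, and the groups overlapped. The log2 fold change was 1.72 ± 2.59 (SE), with an adjusted p of 1.0 by edgeR's quasi-likelihood test, and it was 0.15 without KO replicate 3.

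Ndufb4, an accessory subunit of the membrane arm of complex I, is the other gene without any unique 29-base stretch. Its coding sequence (chr16:37647657-37654359, minus strand, spliced) is identical over 390 bases to Ndufb4c at chr15:73809507-73809896, minus strand, and to a place with no annotated gene at chr19:25033142-25033531, plus strand. Its first 120 bases are printed because these other places hold the whole coding sequence unbroken and letter for letter:
Ndufb4: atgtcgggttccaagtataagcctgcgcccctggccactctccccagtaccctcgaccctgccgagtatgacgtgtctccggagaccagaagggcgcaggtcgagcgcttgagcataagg

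Ndufb4 had 0, 0 and 1 counts in KO libraries, against 10, 18 and 58 counts in WT libraries. The groups did not overlap, and the WT counts compare with modal counts of 15, 21 and 39 in the same libraries. Summed over libraries, KO had 1 count and WT had 86. The ratio of WT over KO, scaled to library size, was 130 with a 95% counting interval of 22.7 to 5192, which leaves out the spread between libraries and the copying of fragments. The adjusted p was 0.69 by edgeR's quasi-likelihood test. Ndufb4c, the identical copy, was listed at 0 counts in every library.

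Ndufs5, an accessory subunit of complex I in the intermembrane space, has a near-identical copy, BC002163, at chr16:42955631-42955951, plus strand. The Ndufs5 coding sequence lies at chr4:123712822-123716079, minus strand, and the copy differs from it at 2 of 321 bases. Both differences lie in the first 120 bases, printed here with the differences in capitals:
Ndufs5: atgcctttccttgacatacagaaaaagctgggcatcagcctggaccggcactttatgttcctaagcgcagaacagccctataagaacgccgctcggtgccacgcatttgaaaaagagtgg
BC002163: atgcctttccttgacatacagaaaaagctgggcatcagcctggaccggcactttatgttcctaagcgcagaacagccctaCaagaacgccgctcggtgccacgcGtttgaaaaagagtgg

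Ndufs5 had 38.2, 0.856 and 22.3 CPM in KO libraries, against 15.2, 0.999 and 0 CPM in WT libraries. BC002163 had 1 count in KO libraries and 1 count in WT libraries. The median level was 91.6 CPM per coding kilobase for the 10 genes with at least 50% of their coding sequence copied, 151 for the 15 genes with 5% to 50%, and 154 for the 32 genes with less. The median standard error of the log2 fold change was 0.92, 0.80 and 0.43 in these 3 sets. Of 63 annotated copies examined, 50 were listed at 0 counts in all libraries and none was tested. Among the rest, Gm2962, a copy of Uqcrb, had 1, 117 and 0 counts in KO libraries and 0 in each WT library. Whether fragments of the subunits were lost to their copies was not tested.

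**Figure D2:**
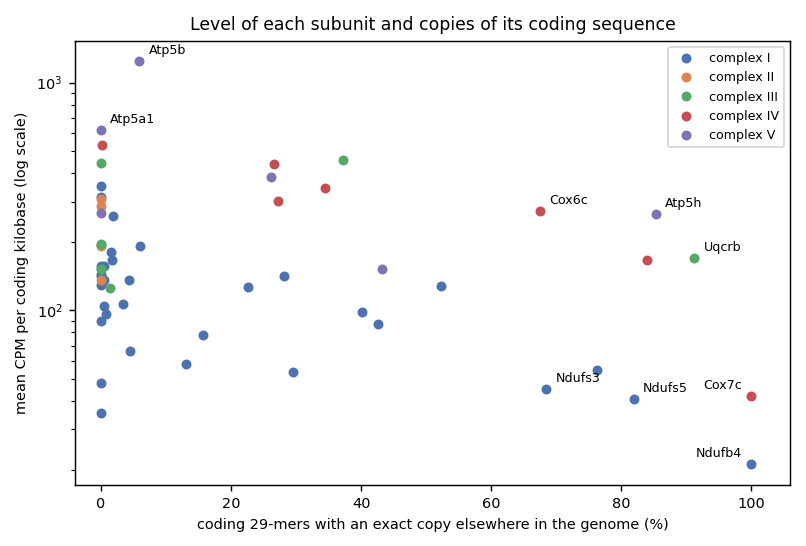
Mean level of each subunit over 6 libraries in CPM per coding kilobase (vertical axis, logarithmic) against the percent of its coding 29-base stretches with an exact copy elsewhere in the genome (horizontal axis), coloured by complex. The 2 genes at 100%, Cox7c and Ndufb4, sit at 42.1 and 21.1.

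Exons of other genes lay over the coding sequence of 11 members as well, covering 72.7% of Ndufb2, 43.7% of Atp5o, 37.4% of Ndufb9 and 25.3% of Cox5a. The strand setting of the counting is not stated either, so reads from these overlaps are uncertain. The 26 members with under 5% of their coding sequence copied and under 5% covered had a median log2 fold change of -0.08, against -0.06 for all 57.

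KO and WT libraries were then compared gene by gene. None of the 57 was called at an adjusted p under 0.05 in edgeR's quasi-likelihood test, against 33 of 8200 tested genes (0.402%, with 0.183% higher and 0.22% lower in KO libraries). At an unadjusted p under 0.05 there were 3 members (5.26%), Ndufa8, Ndufb4 and Atp5a1, each with a negative fold change, against 6.49% of all tested genes. The KO and WT values did not overlap for 7 members (12.3%), against 14.9% of all tested genes. In KO libraries 3 were higher (Ndufa3, Ndufa6 and Ndufa13), against 6.94% of all tested genes, and 4 were lower (Ndufa8, Ndufb4, Uqcrh and Atp5a1), against 7.93%. These shares are close to those of all tested genes, which had larger standard errors (median 0.99, against 0.51 for the members). Among genes with at least 10 molecule equivalents, groups did not overlap for 1 of 14 members (7.14%), against 25.0% of 1179 tested genes. At that depth 7.14% of members and 19.8% of tested genes had an unadjusted p under 0.05 in the same edgeR test. DESeq2 called Ndufa8 and Atp5a1, with 2.97% of all genes it gave an adjusted p for, and limma-voom called none of the 57, with 1.13% of all genes.

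Fold changes lay on both sides of 0. KO minus WT on the log2 scale, 27 members had a positive and 30 a negative value, with a median of -0.06, against -0.02 over all tested genes. The median by complex was 0.12 in complex I (18 positive, 15 negative), -0.23 in complex II (1 and 3), -0.34 in complex III (2 and 5), -0.06 in complex IV (3 and 4) and -0.08 in complex V (3 and 3). Within complex I the 6 core subunits, which carry the flavin, the iron-sulfur clusters and the quinone site, had a median of -0.26 (2 positive, 4 negative, median standard error 0.44). The 27 accessory subunits around them had a median of 0.52 (16 positive, 11 negative, median standard error 0.80), 0 members of either set were called, and the difference between the sets was not tested.

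**Figure D3:**
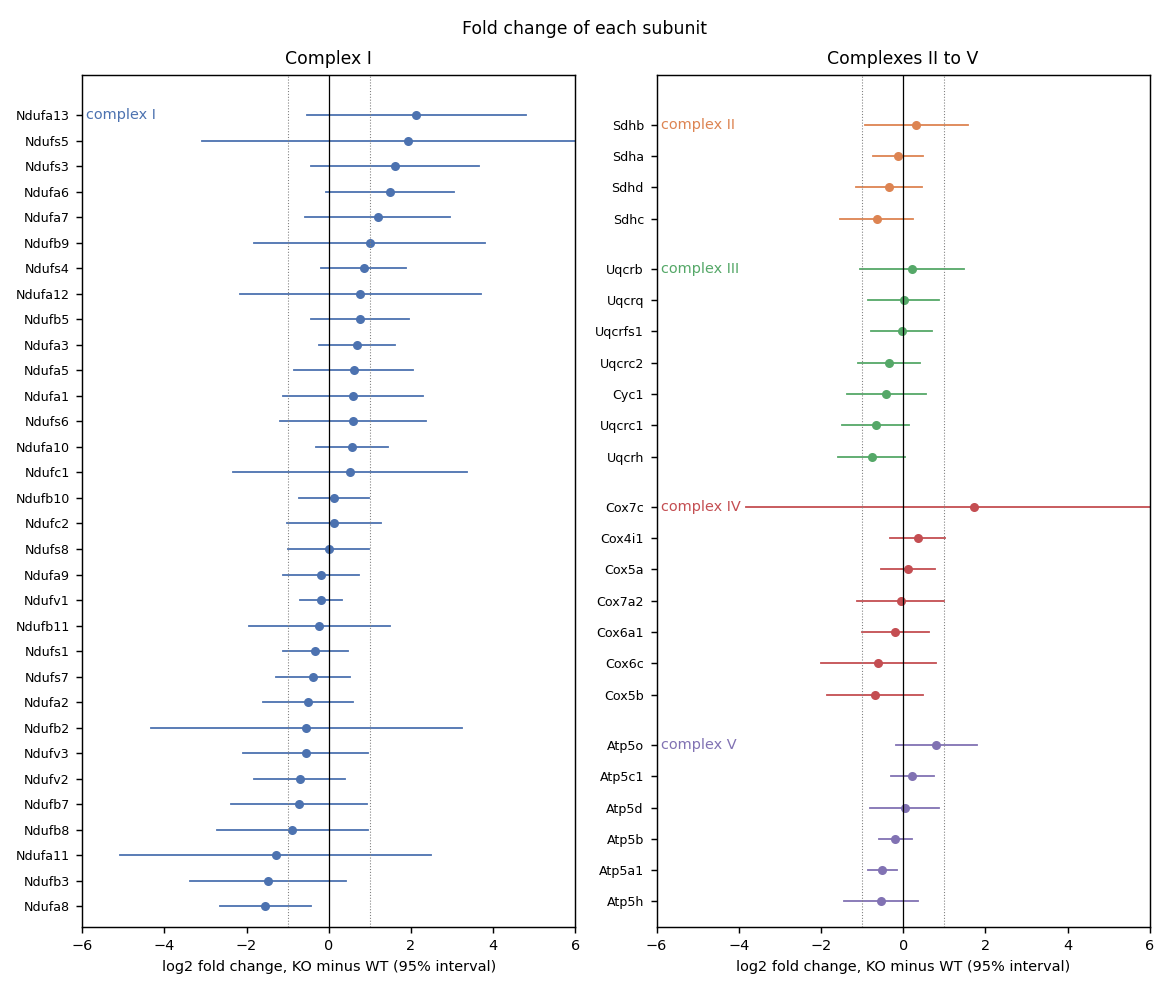
Log2 fold change (KO minus WT) with its 95% interval for 56 of the 57 subunits, by complex, sorted within each complex; dotted lines mark a 2-fold change either way. Ndufb4 is left out because its KO libraries held 1 count, and Ndufs5 and Cox7c have intervals that run past the axis.

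After TMM scaling, summed levels overlapped between KO and WT libraries in complexes I, II and IV and did not in complexes III and V. The sum over all 8200 tested genes did not overlap either, with every KO library below every WT library. It was 982470, 947205 and 959609 CPM in KO libraries, against 1014910, 1063310 and 1037650 CPM in WT libraries. Separation of a summed level is therefore not particular to these complexes. Complex I summed to 2534, 2327 and 2474 CPM in KO libraries, against 2202, 2820 and 2255 CPM in WT libraries. Complex II summed to 975, 838 and 403 CPM in KO libraries, against 809, 727 and 998 CPM in WT libraries. These values overlapped, and KO replicate 3 was lowest for complex II.

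Complex III summed to 1012, 670 and 920 CPM in KO libraries, against 1070, 1198 and 1027 CPM in WT libraries. Every KO value was below every WT value, with KO replicate 1 and WT replicate 3 nearly equal. Complex IV summed to 884, 618 and 880 CPM in KO libraries, against 811, 842 and 682 CPM in WT libraries, with overlap. Complex V summed to 3736, 2989 and 3572 CPM in KO libraries, against 3741, 4238 and 3970 CPM in WT libraries. There the highest KO value and the lowest WT value were nearly equal too. Both separations rest on the TMM factors, which were 1.018 in KO replicate 1, 0.985 in WT replicate 1 and 0.964 in WT replicate 3. Scaled to library totals alone, KO replicate 1 lay above WT replicate 3 for complex III and above WT replicate 1 for complex V. All 57 genes together averaged 8277 ± 850 CPM in KO libraries and 9130 ± 620 CPM in WT libraries (SD, n = 3 each), and their values overlapped.

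**Figure D4:**
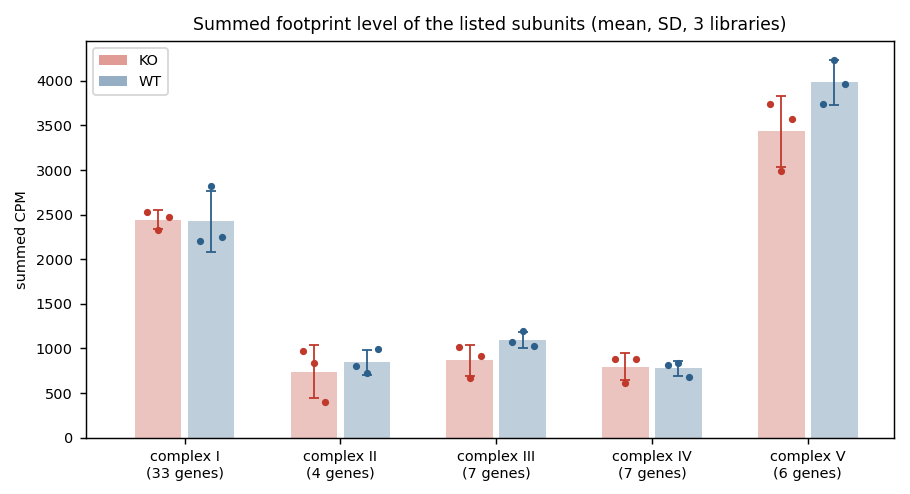
Summed CPM of the members of each complex, with a bar for the mean and SD of the 3 KO libraries beside one for the 3 WT libraries and a point for each library. Complex V is highest in both groups, and with TMM scaling complexes III and V have no KO library above a WT library. The same holds for the sum over all 8200 tested genes, which is not drawn.

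In complex I, which has the most members, Ndufv1 was the most abundant per coding length. It had 483, 373 and 517 CPM in KO libraries, against 472, 665 and 432 CPM in WT libraries. The values overlapped, and the log2 fold change was -0.19 ± 0.24 (SE; adjusted p 1.0 by edgeR). Ndufs1, the largest iron-sulfur subunit, which sits next to Ndufv1 in the arm that takes up electrons, averaged 174 ± 78.8 CPM in KO libraries and 218 ± 32.1 CPM in WT libraries (SD, n = 3 each). The other core subunits Ndufs3, Ndufs7, Ndufs8 and Ndufv2 had log2 fold changes from -0.71 for Ndufv2 to 1.61 for Ndufs3.

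Ndufa8, an accessory subunit in the intermembrane space held by paired disulfides, had 69.0, 27.4 and 27.3 CPM in KO libraries, against 105, 137 and 119 CPM in WT libraries. No KO library reached the lowest WT library. The log2 fold change was -1.54 ± 0.52 (SE; 95% interval -2.66 to -0.43). Its adjusted p was 0.455 in edgeR's quasi-likelihood test and 0.0492 in DESeq2, with a range of 0.0492 to 0.910 over the other settings. No 29-base stretch of the Ndufa8 coding sequence had an exact copy elsewhere, and no exon of another gene lay over it. Without KO replicate 1 the log2 fold change was -2.13.

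Ndufa6, an accessory subunit of the family that binds the mitochondrial acyl carrier protein, had 123, 96.8 and 69.2 CPM in KO libraries, against 39.5, 58.5 and 4.63 CPM in WT libraries. Every KO library was above every WT library. The log2 fold change was 1.49 ± 0.72 (SE; adjusted p 0.81 by edgeR), and it was 0.97 without WT replicate 3. Ndufs4, an accessory subunit of the arm in the matrix whose loss causes mitochondrial disease in mice and people, had 129, 66.4 and 122 CPM in KO libraries, against 50.5, 75.5 and 50.3 CPM in WT libraries. Its groups overlapped through KO replicate 2, and the log2 fold change was 0.85 ± 0.48 (SE; adjusted p 0.96 by edgeR).

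Ndufa3 and Ndufa13, accessory subunits with a single membrane-spanning helix, completed the genes higher in every KO library. Ndufa3 had 120.2, 135 and 94.3 CPM in KO libraries, against 75.4, 88.4 and 53.2 CPM in WT libraries. Ndufa13 had 58.5, 55.7 and 50.3 CPM in KO libraries, against 10.3, 27.0 and 0 CPM in WT libraries. Neither was called, with log2 fold changes of 0.69 ± 0.43 and 2.13 ± 1.25 (SE). Apart from these 3, Ndufa8 and Ndufb4, the members of complex I had overlapping groups.

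All 4 subunits of complex II were measured without copies or overlapping genes. Sdha carries the flavin that oxidises succinate, Sdhb the iron-sulfur clusters, and Sdhc and Sdhd anchor the enzyme in the membrane. Sdha had 406, 484 and 211 CPM in KO libraries, against 393, 353 and 453 CPM in WT libraries. Sdhb had 282, 43.2 and 59.6 CPM in KO libraries, against 94.2, 113 and 101 CPM in WT libraries. KO replicate 1 stood far above the other libraries for Sdhb, and without it the log2 fold change of 0.32 ± 0.58 (SE) became -0.99.

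Sdhc had 137, 145 and 58.9 CPM in KO libraries, against 149.6, 126 and 257 CPM in WT libraries. Sdhd had 149.8, 167 and 72.9 CPM in KO libraries, against 171, 135 and 188 CPM in WT libraries. KO replicate 3 held the lowest value of all libraries for Sdha, Sdhc and Sdhd, and the other KO libraries lay within or above the range of the WT libraries for Sdha and within it for Sdhd. The log2 fold changes were -0.12 ± 0.29 for Sdha, -0.65 ± 0.42 for Sdhc and -0.35 ± 0.38 for Sdhd (SE), each with an adjusted p of 1.0 by edgeR. Without KO replicate 3 the values were 0.15 for Sdha, -0.34 for Sdhc and -0.06 for Sdhd, and without WT replicate 3 those of Sdhc and Sdhd were -0.28 and -0.24.

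In complex III, Uqcrc1 and Uqcrc2 are the core proteins that face the matrix, Cyc1 is cytochrome c1, Uqcrfs1 is the Rieske iron-sulfur protein and Uqcrh is the acidic hinge protein that touches cytochrome c. Uqcrh had 91.3, 85.2 and 94.3 CPM in KO libraries, against 111, 158 and 193 CPM in WT libraries. The KO values lay close together and below all WT values, and the log2 fold change was -0.77 ± 0.38 (SE; adjusted p 0.82 by edgeR). Exact copies covered 37.2% of its coding sequence.

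Uqcrc1 had 185, 74.9 and 159 CPM in KO libraries, against 149, 267 and 250.3 CPM in WT libraries. Uqcrc2 had 235, 167 and 142 CPM in KO libraries, against 285, 276 and 129 CPM in WT libraries. Cyc1 had 205, 47.1 and 128 CPM in KO libraries, against 193, 173 and 139 CPM in WT libraries. All 3 overlapped between groups, and KO replicate 2 was lowest for Uqcrc1 and Cyc1. Their log2 fold changes were -0.67 ± 0.38, -0.34 ± 0.35 and -0.41 ± 0.45 (SE). Each rested partly on 1 library: without KO replicate 2 they were -0.36, -0.28 and -0.014, and without WT replicate 1 that of Uqcrc2 was -0.16. Over all left-out libraries they ran from -0.91 to -0.36 for Uqcrc1, from -0.63 to -0.16 for Uqcrc2 and from -0.93 to -0.014 for Cyc1. The other members, Uqcrfs1, Uqcrb and Uqcrq, had log2 fold changes of -0.03, 0.21 and 0.01. The lower mean summed level of complex III came with lower mean levels of Uqcrc1, Uqcrc2, Uqcrh and Cyc1, none of which was called.

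The listed complex IV subunits surround the catalytic core that mitochondria encode. Cox4i1, the widely expressed form of subunit IV, had 418, 227 and 257 CPM in KO libraries, against 196, 314 and 198 CPM in WT libraries. The groups overlapped, and the log2 fold change was 0.35 ± 0.31 (SE; adjusted p 1.0 by edgeR), with a range of 0.047 (without KO replicate 1) to 0.61 (without WT replicate 2). Cox5b, which binds zinc on the matrix side, had 37.8, 40.2 and 70.7 CPM in KO libraries, against 69.9, 59.5 and 109.8 CPM in WT libraries. Cox6c, a small membrane subunit, had 59.7, 12.0 and 76.0 CPM in KO libraries, against 88.8, 72 and 63.6 CPM in WT libraries. Both sets of values overlapped, with log2 fold changes of -0.68 ± 0.55 and -0.60 ± 0.65 (SE). Cox5b was at -1.03 without KO replicate 3 and -0.38 without WT replicate 3, and Cox6c at -0.13 without KO replicate 2 and -1.06 without KO replicate 3. Cox5a, Cox6a1 and Cox7a2 lay between -0.19 and 0.12 on the log2 scale.

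In complex V, Atp5a1 and Atp5b form the catalytic ring, Atp5c1 is the rotating central stalk, Atp5d is its delta subunit, and Atp5o and Atp5h belong to the stalk that holds the ring still. Atp5a1 had 801, 891 and 856 CPM in KO libraries, against 1127, 1273 and 1215 CPM in WT libraries. The KO libraries lay close together and all below the WT libraries. The log2 fold change was -0.50 ± 0.17 (SE; 95% interval -0.87 to -0.14), the smallest standard error of the 57. The adjusted p was 0.444 in edgeR's quasi-likelihood test and 0.0424 in DESeq2, with a range of 0.0424 to 0.910 over the other settings. The fold change stayed between -0.55 and -0.46 when each library was left out in turn.

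Atp5b, its partner in the ring, had 2215, 1308 and 2022 CPM in KO libraries, against 2079, 2251 and 1990 CPM in WT libraries. KO replicate 2 was low and the other KO libraries lay among the WT libraries. The log2 fold change was -0.19 ± 0.19 (SE; 95% interval -0.59 to 0.21), and it was 0.02 without KO replicate 2. Copies covered 5.89% of Atp5b, and Gm4707, the gene that holds them, had 1, 2 and 1 counts in KO libraries and 18, 1 and 1 counts in WT libraries.

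The alpha and beta subunits occur in equal number in the enzyme, with 1 gamma subunit for each ring. Per coding length the ratio of Atp5b to Atp5a1 was 2.89, 1.54 and 2.47 in KO libraries, against 1.93, 1.85 and 1.71 in WT libraries. These overlapped. The ratio of Atp5a1 to Atp5c1 was 1.12, 1.47 and 1.16 in KO libraries, against 2.32, 2.28 and 1.70 in WT libraries. Every KO ratio was below every WT ratio. Of 9 ratios computed between subunits of one complex it was the only one whose groups did not overlap, and it was singled out after its values were seen. Exact copies covered 26.1% of Atp5c1, whose CPM averaged 369.8 ± 38.9 in KO libraries and 316 ± 62.8 in WT libraries (SD, n = 3 each).

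Atp5o had 122, 170.0 and 77.2 CPM in KO libraries, against 45.0, 83.9 and 81.5 CPM in WT libraries. Atp5h had 81.1, 169 and 63.0 CPM in KO libraries, against 149.6, 130.4 and 175 CPM in WT libraries. Both stalk subunits overlapped between groups and had fold changes of opposite sign, 0.81 ± 0.46 and -0.54 ± 0.42 (SE) on the log2 scale. Without KO replicate 2 the values were 0.51 and -1.07, and without KO replicate 3 that of Atp5h was -0.28. Exact copies covered 43.2% of Atp5o and 85.4% of Atp5h. Atp5d averaged 137 ± 16.1 CPM in KO libraries and 134 ± 60.6 CPM in WT libraries (SD, n = 3 each).

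The precision of these values followed depth in molecule equivalents. The median standard error of the log2 fold change was 0.51 for the members, against 0.99 for all tested genes, and the 95% interval lay within a 2-fold change either way for 11 of the 57. The 14 members with at least 10 molecule equivalents per library had a median log2 fold change of -0.19. Of these, 3 were positive and 11 negative (78.6%). The 1179 tested genes at that depth had a median of -0.08, with 483 positive and 696 negative (59.0%). The 17 members with under 3 molecule equivalents had a median of 0.59 and a median standard error of 1.25. In complex I the interval was that narrow for 3 of 33 members, and in complex V for 4 of 6.

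**Figure D5:**
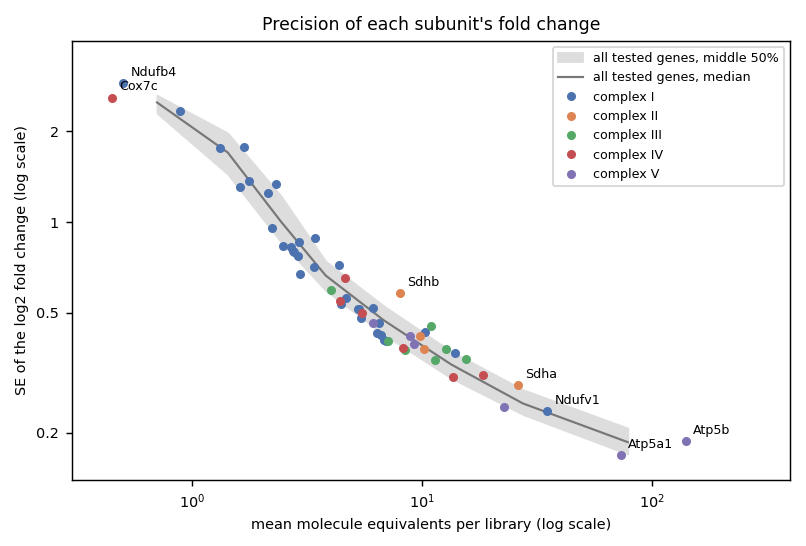
Standard error of the log2 fold change (vertical axis, logarithmic) against mean molecule equivalents per library (horizontal axis, logarithmic) for the 57 subunits, with the median and middle 50% of all tested genes as a line and band. Atp5a1 has the smallest error, 0.17, and Ndufb4 and Cox7c the largest, 2.89 and 2.59.

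Other genes of the same organelle were read from lists for comparison. Of 29 other nuclear-encoded respiratory subunits 21 were tested and 0 were called, with 7 positive and 14 negative fold changes and a median of -0.26. Atp5j, another stalk subunit of the ATP synthase, had 38.2, 164 and 74.5 CPM in KO libraries, against 159, 168 and 247 CPM in WT libraries (log2 fold change -1.05 ± 0.47, SE). Uqcr11 and Cox8a, small subunits of complexes III and IV, were higher in every KO library, with log2 fold changes of 0.74 and 0.72. Their adjusted p were 0.88 and 0.99 by edgeR's quasi-likelihood test. In this list groups did not overlap for 3 of 21 tested genes (14.3%, 2 higher and 1 lower in KO libraries), against 14.9% of all tested genes. Of 46 assembly factors 34 were tested and 0 called, 12 positive and 22 negative, with a median of -0.43. Coa7, a factor for complex IV, had 0 counts in each KO library, against 27, 67 and 22 counts in WT libraries. Ndufaf4, a factor for complex I, had 0, 0 and 2 counts in KO libraries, against 8, 78 and 66 counts in WT libraries. The adjusted p of Coa7 and Ndufaf4 were 0.51 and 0.57 by edgeR's quasi-likelihood test. Among the assembly factors, groups did not overlap for 4 of 34 tested genes (11.8%), all lower in KO libraries, against 7.93% of all tested genes.

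The mitochondrially encoded subunits, which share complexes with these genes, summed to 2842, 3037 and 3689 CPM in KO libraries, against 5047, 2752 and 2857 CPM in WT libraries. WT replicate 1 was high and the rest overlapped. Of the 13 genes 8 were tested and 0 called, with a median log2 fold change of -0.13. All 18 citric acid cycle genes were tested and 0 called, 6 positive and 12 negative, with a median of -0.28. Cs, citrate synthase, averaged 524 ± 54.8 CPM in KO libraries and 695 ± 49.3 CPM in WT libraries (SD, n = 3 each), with no overlap and an adjusted p of 0.80 by edgeR. It was the only 1 of the 18 without overlap (5.56%), against 14.9% of all tested genes. The 26 genes of carriers, import and chaperones had a median of -0.13, and Hspa9, the matrix chaperone of protein import, had a log2 fold change of -0.41 ± 0.18 (SE). The 73 tested mitochondrial ribosomal proteins had 36 positive and 37 negative values and a median of -0.01. Among 14 tested regulators of respiratory genes, with a median of -0.27, Gabpb1, a subunit of the factor GABP, was higher in every KO library (1.60 ± 1.02, SE). No other regulator was without overlap, a share of 7.14%. No gene of these lists was called.

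Promoters of the respiratory genes are known for sites of NRF1, GABP and YY1. RefSeq promoters on GRCm38.p6, from 250 bases before to 50 bases after the start of the gene, were matched for 46 of the 57 members and searched on both strands. A 10-letter NRF1 motif that reads the same on both strands, in capitals in the sites below, was found in 3 of 46 (6.52%), against 1.07% of all genes and 2.71% of tested genes with a promoter. The GABP letters CCGGAAGT were found in 3 of 46 (6.52%), against 4.31% and 11.0%. The YY1 letters AAGATGGC were found in 7 of 46 (15.2%), against 3.19% and 6.37%. TATAAA was found in 4 of 46 (8.70%), against 15.7% and 7.72%. These are matches of letters and say nothing about binding. The 3 NRF1 matches are printed with 10 bases on either side and the match in capitals, in RefSeq sequence on GRCm38.p6. They lie at chr5:115349101-115349130 (minus strand), chr9:108936668-108936697 (plus strand) and chr17:56717692-56717721 (plus strand):
Cox6a1: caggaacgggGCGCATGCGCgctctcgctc
Uqcrc1: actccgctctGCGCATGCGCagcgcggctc
Ndufa11: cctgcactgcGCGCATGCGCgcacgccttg

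The 3 genes had log2 fold changes of -0.19 for Cox6a1, -0.67 for Uqcrc1 and -1.29 for Ndufa11, with standard errors of 0.38, 0.38 and 1.77.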

How the data were processed

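Ribosome-protected fragments were counted in 6 libraries of ID8 cells, 3 KO and 3 WT by title. Per the labels' protocols, fragments of 25 to 34 nt were used, Bowtie removed those from rRNA and tRNA, and HISAT2 and Bowtie aligned what was left to GRCm38 and its transcriptome. Further tools in the submitters' processing notes are cutadapt, featureCounts and DESeq2. For multiply matching reads, strand and duplicates the sources used here give no settings. The authors deposited whole-number counts per gene, not normalized, and 53360 of 53465 identifiers matched GENCODE M21. The members and gene lists were chosen with earlier results of these data known.

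Genes were tested with the robust quasi-likelihood F test of edgeR (4.0.16, under R 4.3.3) after TMM scaling and filterByExpr, with Benjamini-Hochberg adjustment over all tested genes. The common biological coefficient of variation was 0.99. Intervals are 95%. The modal count is where a library's histogram of gene counts, smoothed with a bandwidth of 3 between 8 and 150, peaks. Coding sequences were the longest complete ones in M21, and their 29-base stretches were searched on both strands of GRCm38. Full statistics were given for the 4 members of each complex with the smallest unadjusted p and for the one with the highest level per coding length, and at most 3 genes per list were named. Other settings used DESeq2 1.42.0 and limma 3.58.1, other normalizations and filters, the replicate number as a block, molecule equivalents, and each library left out. One setting, members with few copies and overlaps, was added after seeing the data. The edgeR test was also run on simulated counts with known changes. These did not copy the modal counts of the real libraries, so how the test behaves under them was not checked.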

Additional observations from a re-analysis of the deposited data

How the results depend on the processing

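The number of genes called was 33 in the test as reported, 237 with DESeq2, 93 with limma-voom, 110 with molecule equivalents, 91 with no count filter, and 6 to 29 when each library was left out. Members called numbered 2 with DESeq2 (Ndufa8 and Atp5a1) and 0 in every other setting run, including 0 with each library left out. With molecule equivalents 10 members were tested, so medians in that setting rest on fewer members as well as on another measure. The median log2 fold change of the members, -0.06 as reported, was 0.054 with library totals in place of TMM, where the median of all tested genes moved by 0.11, and it ran from -0.17 to 0.016 when each library was left out. That of complex I (0.12 over 33 members) was -0.19 over the 2 members tested with molecule equivalents, 0.0011 over the 15 with few copies and overlaps, and -0.068 to 0.25 with a library left out. That of complex IV (-0.06 over 7 members) was 0.28 over the 2 tested with molecule equivalents, 0.35 in the 1 member with few copies and overlaps, and -0.23 to 0.13 with a library left out. That of complex V (-0.08) was -0.23 in the 2 members with few copies and overlaps, Atp5a1 and Atp5d, and -0.22 to 0.060 with a library left out. Left-out ranges were -0.63 to 0.04 in complex II and -0.57 to -0.014 in complex III, whose 4 members with few copies and overlaps had a median of -0.22 (-0.34 as reported). Over 21 members with full statistics and 320 values in other settings, 312 kept their direction and side of the threshold, 2 passed it (the DESeq2 calls) and 6 changed direction. These 6 were Sdhb with limma-voom (-0.21), with the replicate block (-0.22) and without KO replicate 1 (-0.99), Atp5b without KO replicate 2 (0.016), Sdha without KO replicate 3 (0.15) and Ndufv1 without WT replicate 2 (0.016). With each library left out, values ran from -0.99 to 0.73 for Sdhb, -0.33 to 0.016 for Atp5b, -0.37 to 0.15 for Sdha and -0.31 to 0.016 for Ndufv1. The cause of these changes was not tested beyond the libraries named.

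Same-numbered KO and WT libraries did not deviate together (r across genes of -0.02, -0.0026 and -0.0067). These values gave no sign of pairing by number, but noise in genes of low depth could hide a shared effect. With the replicate number as a block 38 genes and 0 members were called, and the median of the members was -0.18, beside -0.10 over all tested genes. No molecular identifiers are described, so counting intervals cover counting error alone.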
